A study of Mus musculus with 10 samples.

Results

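Primordial germ cell-like cells (PGCLCs) induced from a female mouse embryonic stem cell (ESC) line were compared with the ESCs themselves by RNA-seq, to describe which gene programmes were gained and which were lost on induction. Of the 36066 genes in the table, the 15008 that reached at least 1 TPM (transcript abundance scaled for gene length and library size) in at least 2 of the 4 libraries concerned were counted: 2 libraries of ESCs and 2 of ESC-PGCLCs. The ESC line carried a β-Actin-GFP transgene on the C57BL6 background and was kept on feeder cells in serum with LIF. For induction it passed through 2i medium with LIF and 2 days as epiblast-like cells with bFGF and activin A, and the PGCLCs were then grown for 4 days as floating aggregates in medium with BMP4 (500 ng/mL), LIF (1000 IU/mL), SCF (100 ng/mL) and EGF (50 ng/mL). By the study's methods PGCLCs were sorted as positive for both SSEA1 and integrin β3 (CD61). For a gain of these markers, induction and sort therefore cannot be told apart. Libraries of the parthenogenetic line (pESCs, from activated oocytes of the same background), of the PGCLCs made from it and of embryonic PGCs, 2 of each, stood beside them. The labels name 1 female line, give the PGCs no embryonic day and do not say whether the sequenced PGCLCs had been joined with fetal gonadal cells, a later step of the study. The study calls its RNA-seq replicates biological, and the labels say nothing on separate cultures, so the p-values measure the spread between these libraries.

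Primordial germ cells are the founders of eggs and sperm. In the mouse, BMP4 acts on epiblast cells already primed by WNT, and the transcription factors PRDM1, PRDM14 and TFAP2C then repress somatic genes, restore parts of the pluripotency network and open the way to erasure of DNA methylation. Genes of the later germline, such as Dazl and Ddx4, are normally taken up after germ cells reach the gonad, and in females meiosis follows in response to signals from the gonad.

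Defining markers bore out the name PGCLC in part. The specification genes Prdm1, Tfap2c, Nanos3, Dnd1, Dppa3 and Kit were all higher in ESC-PGCLCs than in ESCs, and Prdm14 did not pass the test. The libraries labelled ESC-PGCLC also held Dazl at 1664 and 1821 TPM, Sycp3 at 1702 and 1651 TPM, embryonic haemoglobin Hbb-y at 300.2 and 353 TPM and the gonadal gene Wt1 at 7.16 and 8.05 TPM, while Pou5f1, which PGCs and ESCs both rely on, stood at 0.374 and 0 TPM. The same genes read 1958 and 2095, 666 and 973, 1153 and 1113, 26.2 and 22.4 and 3.14 and 1.63 TPM in the PGC libraries. Germ cell genes of a later stage, Hbb-y and Wt1 thus accompanied the specification genes in both ESC-PGCLC libraries. Of 19 blood and endothelial markers 11 were not counted, Gata1 and Ptprc among them. Of 14 gonadal somatic markers 7 were not counted, Foxl2 and Nr5a1 among them. In bulk libraries fewer cells of a type and less RNA per cell cannot be told apart.

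Depth differed between the groups. Reads recovered from the TPM values and exon lengths came to 14552664 and 18572901 in the ESC libraries and to 7697693 and 6779838 in the ESC-PGCLC libraries. With exons of 2183 nt, the median over genes, 3 reads were worth 0.149 and 0.116 TPM in the libraries of ESCs and 0.289 and 0.338 TPM in those of ESC-PGCLCs. Changes below about these levels were not detectable, and this floor covers counting error alone. A set of 11 satellite-like genes, led by Gm10800, held 7.63% and 2.32% of all TPM in ESC-PGCLCs, beside 0.0443% and 0.126% in ESCs, and its part in the other values was not tested. Across counted genes the squared correlation of log2(TPM + 1) was 0.980 between the ESC libraries, 0.953 between the ESC-PGCLC libraries and 0.494 between the means of the groups.

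Induction moved genes in both directions in like numbers. With a gene called at an adjusted p under 0.05 (limma, Benjamini-Hochberg over the 27259 genes fitted) and a change of at least 2-fold, 4023 of the 15008 counted genes (26.8%) were higher in ESC-PGCLCs and 3886 (25.9%) were lower. These shares, taken over counted genes, are the background for each gene list that follows. List counts are given out of all listed genes, so members that were not counted must be left out before comparing. The lists were chosen with earlier results of these data known, so their counts and ranks are description. The 2 groups did not overlap for 13331 counted genes (88.8%), so a lack of overlap says little about a single gene. Changes were large: 1425 genes rose and 1734 fell by at least 4-fold, and 74 rose and 102 fell by at least 32-fold. The median log2 fold change was 0.08 over counted genes and 0 over the whole table. A 2 against 2 comparison of a single gene cannot give an exact permutation p below 0.333. The calls therefore rest on each gene's spread pooled over all 10 libraries and, to a lesser part, on variance shared across genes. They assume a like spread in the pESC, pESC-PGCLC and PGC libraries.

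**Figure D1:**
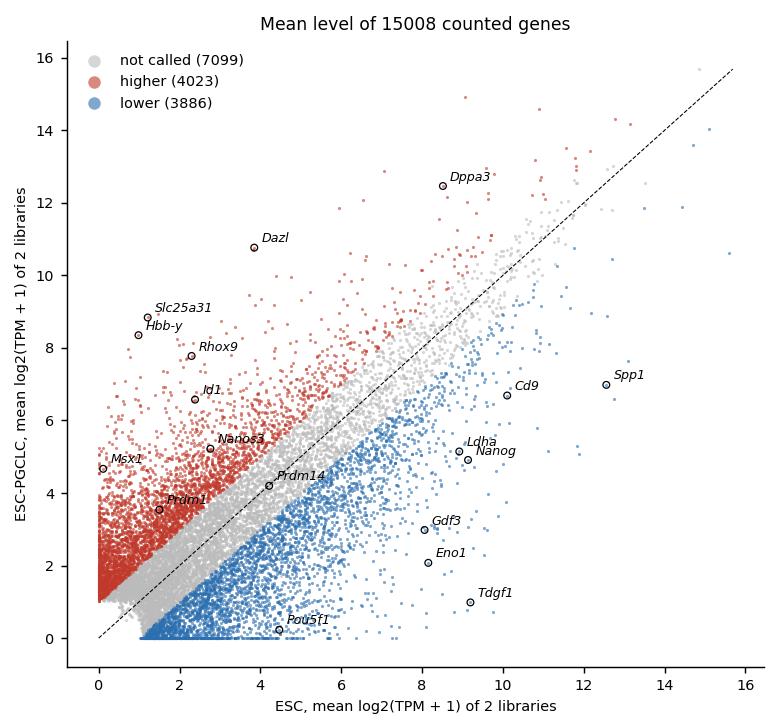
Mean log2(TPM + 1) of the 2 ESC libraries (horizontal axis) and the 2 ESC-PGCLC libraries (vertical axis) for the 15008 counted genes, with 4023 called higher in red, 3886 called lower in blue and 7099 not called in grey, and equal levels on the dashed line. Dazl, Slc25a31 and Hbb-y lie far above the line, Tdgf1, Pou5f1 and Eno1 far below it, and Prdm14 on it.

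GC content and length moved with the change. Protein-coding genes in the lowest quintile by GC content of the longest transcript had a median log2 fold change of 0.74, with 41.3% called higher and 13.4% lower, and those in the highest quintile had a median of -0.46, with 15.7% higher and 35.98% lower. By length, the median ran from -0.76 in the shortest quintile to 0.84 in the longest. The same quintiles moved less in the induction of pESCs, from 0.94 to 0.60 by GC content and from 0.28 to 1.02 by length. A correction that removed GC content and length from each library, chosen after the data were seen, left 3346 genes higher (22.5%) and 3664 lower (24.6%) of 14898 with a value. Lists whose counts it moved by over 1.5 times are given with both counts, and the part of GC content and length in the change was not tested beyond this correction.

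**Figure D2:**
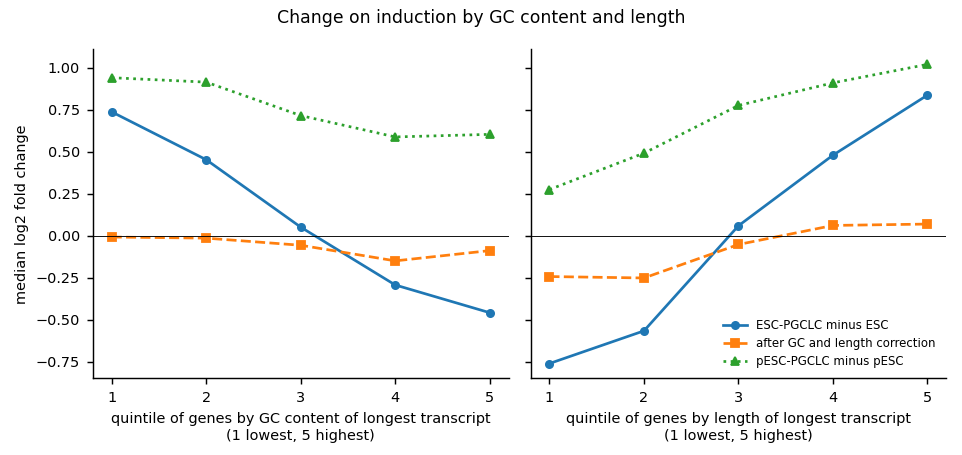
Median log2 fold change on induction in quintiles of the counted protein-coding genes, by GC content (left) and by length (right) of the longest transcript, from the lowest quintile (1) to the highest (5). Blue circles are ESC-PGCLC minus ESC, which fall from 0.74 to -0.46 with GC content, orange squares the same after the correction, and green triangles pESC-PGCLC minus pESC.

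Germline genes led the increases. Among genes with at least 10 TPM in the higher group and exons of at least 200 nt, the 12 that rose most were Slc25a31, Tex12, Hbb-y, 1700018B24Rik, Smc1b, Dazl, Sycp3, Tex13b, 3830403N18Rik, 1700013H16Rik, Scml2 and Hba-a1, with log2 fold changes between 6.22 and 7.63. Scml2, a germline polycomb-like protein, went from 0.339 and 0.346 TPM to 94.5 and 109 TPM. The 12 that fell most were 2210409E12Rik, Gm46332, Tdgf1, Trh, Ubd, Gpx2, Upp1, Gm49450, Apela, Gm45886, Gm47428 and Gm26564, between -9.03 and -6.84. Trh, the thyrotropin-releasing hormone precursor, went from 467 and 419 TPM to 0.7595 and 0.533 TPM, and Upp1, uridine phosphorylase, from 397 and 330.3 TPM to 1.39 and 1.25 TPM. These genes were among the abundant transcripts of ESCs and close to the floor after induction. Apela, an early embryonic ligand of the apelin receptor, stood at 174 and 169.9 TPM in ESCs and 0.209 and 0.245 TPM in ESC-PGCLCs. Gm49450, Gm45886 and 2210409E12Rik share 100.0%, 81.5% and 39.7% of their 100-base stretches with other annotated genes, so their own levels are uncertain.

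Specification genes rose in part, and Prdm14 was not among them. Of the 20 listed PGC specification factors, 9 rose, 2 fell, 6 did not pass the test and 3 were below the level needed to be counted, and the median log2 fold change over all of them was 0.59, beside 0 over the whole table. Prdm1 (Blimp1, chr10:44437177-44528501, GRCm38), the repressor of the somatic programme, stood at 1.97 and 1.704 TPM in ESCs and 10.9 and 10.4 TPM in ESC-PGCLCs (log2 fold change 2.04 ± 0.17 (SE), adjusted p = 3.9e-05). Tfap2c, its partner in specification, went from 4.51 and 4.596 TPM to 11.3 and 11.2 TPM (log2 fold change 1.14 ± 0.21 (SE), adjusted p = 0.0028). For both, the 2 libraries of each group lay close together and the groups did not overlap, as for 88.8% of all counted genes. Prdm14, which sustains pluripotency and epigenetic resetting in PGCs, read 17.2 and 18.1 TPM in ESCs and 16.7 and 18.02 TPM in ESC-PGCLCs and did not pass the test (log2 fold change -0.02 ± 0.17 (SE), adjusted p = 0.96).

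Genes of germ cell maintenance rose as well. Nanos3, an RNA-binding protein that protects PGCs from death, went from 6.46 and 5.19 TPM to 38.5 and 34.3 TPM (log2 fold change 2.46 ± 0.28 (SE), adjusted p = 0.000214). Dnd1, the dead end RNA-binding protein, went from 4.995 and 4.81 TPM to 23.4 and 29.9 TPM (log2 fold change 2.22 ± 0.16 (SE), adjusted p = 2.36e-05). Dppa3 (Stella, chr6:122626410-122630272), which shields DNA in germ cells and zygotes, was already at 353 and 378 TPM in ESCs and reached 5628 and 5681 TPM (log2 fold change 3.95 ± 0.19 (SE), adjusted p = 4.1e-06). These RNA-binding and chromatin proteins rose together, from levels that ESCs already showed. Kit, the receptor of the added SCF, went from 3.25 and 3.52 TPM to 11.7 and 12.2 TPM (log2 fold change 1.56 ± 0.25 (SE), adjusted p = 0.0013). The X-linked homeobox genes Rhox5, Rhox6 and Rhox9 rose by 3.60, 4.55 and 5.48 on the log2 scale, Rhox9 from 3.49 and 4.396 TPM to 218 and 219 TPM. Rhox6 and Rhox9 share 6.81% and 2.45% of their 100-base stretches with other genes. All of these were higher in both ESC-PGCLC libraries than in either ESC library. The groups did not overlap, in either direction, for 88.8% of all counted genes, so this says little about a single gene.

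A pair of listed markers went the other way. Ifitm3 (Fragilis), a membrane protein of nascent PGCs that ESCs also express, fell from 1928 and 1917 TPM to 332 and 299 TPM (log2 fold change -2.60 ± 0.45 (SE), adjusted p = 0.0018), and Klf2 from 25.8 and 29.5 TPM to 12.7 and 9.44 TPM (log2 fold change -1.25 ± 0.25 (SE), adjusted p = 0.004). T (brachyury), the mesoderm factor that WNT turns on ahead of Prdm1, stood at 1.59 and 1.93 TPM and 1.18 and 0.955 TPM and did not pass the test, like Bmp4, Ifitm1, Lin28a and Nr5a2. Sox17, Tfap2a and Elf5 stayed below the level needed to be counted.

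**Figure D3:**
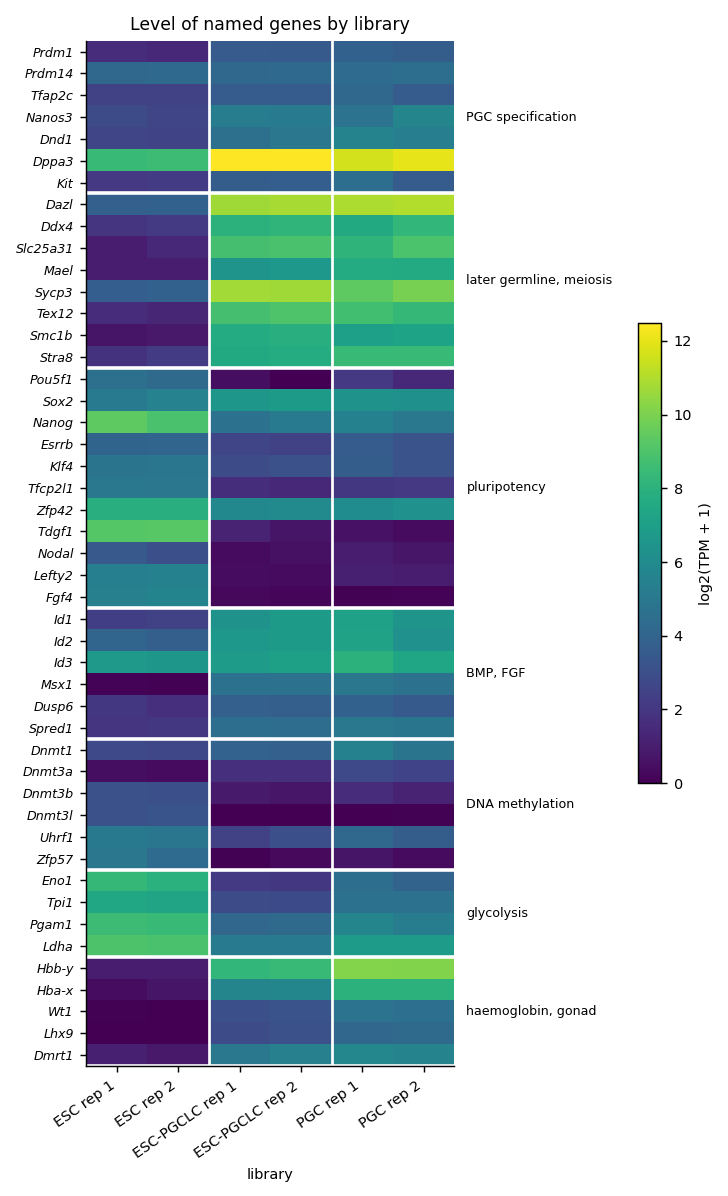
Level of 47 named genes as log2(TPM + 1), from dark (0) to yellow (over 12), in the 2 ESC, 2 ESC-PGCLC and 2 PGC libraries, with white lines between gene groups and between sample groups. Later germline and meiosis genes are bright in the ESC-PGCLC and PGC columns alike, and Tdgf1, Fgf4, Zfp57 and the glycolysis enzymes are bright in the ESC columns.

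Later germline genes had the highest median of the 36 lists over all members in the table. Over counted members alone, blood and endothelial markers stood higher, at 4.06 beside 3.30. Of 30 listed, 22 rose, 1 fell, 4 did not pass the test and 3 were below the level needed to be counted, with a median of 3.03 over all in the table. Slc25a31 (chr3:40708855-40726096), the germ cell ADP/ATP carrier of mitochondria, went from 1.02 and 1.66 TPM to 440.3 and 475 TPM (log2 fold change 7.63 ± 0.38 (SE), adjusted p = 4.57e-06). Dazl (chr17:50279395-50293636), an RNA-binding protein that licenses germ cells for sexual differentiation, went from 13.2 and 13.6 TPM to 1664 and 1821 TPM (log2 fold change 6.92 ± 0.19 (SE), adjusted p = 1.11e-06), about 129.9 times the ESC mean. Both genes went from a low level to one far above it, with replicates close together. Ddx4 (Vasa, chr13:112598333-112652475), the RNA helicase of germ granules, went from 2.63 and 3.35 TPM to 259.5 and 281 TPM (log2 fold change 6.09 ± 0.28 (SE), adjusted p = 3.72e-06). Each of the 3 was at a level of the same order in the PGC libraries, with 277 and 495, 1958 and 2095 and 189 and 303 TPM.

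The piRNA pathway, which silences transposons in germ cells, took part. Mael (maelstrom) went from 0.9395 and 0.971 TPM to 86.4 and 101 TPM, Asz1 from 0.4604 and 0.654 TPM to 87.1 and 84.9 TPM and Piwil2, a PIWI protein that carries piRNAs, from 0.349 and 0.191 TPM to 18.7 and 19.98 TPM. Mov10l1 rose from 0.363 and 0.241 TPM to 14.5 and 13.6 TPM, and Tdrd5 and Tdrd7 also rose. Tdrd12 was the 1 listed gene that fell, from 67.1 and 69.9 TPM to 8.43 and 6.06 TPM (log2 fold change -3.09 ± 0.24 (SE), adjusted p = 3.36e-05). Piwil4 and Tdrd9 stayed below the level needed to be counted.

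Promoters of these genes are shown because the members moved together and the promoters of methylation-sensitive germline genes are known for E-boxes and for sites of E2F6-type repressors. Windows from 250 bases before to 50 bases after the start (RefSeq, GRCm38.p6, 1 window a gene) were found for 35 of the later germline (22) and meiosis (18) genes that rose. The E-box CACGTG, the same on both strands, was present in 15 of the 35 (42.9%), against 7.24% of 27025 genes with a window and 10.5% of 9152 counted genes with one. The letters TCCCGC, on either strand, were present in 16 (45.7%), against 20.02% and 35.5%. Of 8 counted members of these lists that did not rise, 2 held the E-box and 5 (62.5%) held TCCCGC. RefSeq starts can lie inside the gene positions given above, which are from GENCODE, as for Ddx4. Dazl, Asz1, Stra8, Mael and Meioc also rose by over 5 on the log2 scale and hold no match in the 100 bases before the start. The 100 bases before the start follow for 6 genes that rose by over 5 on the log2 scale and hold a match there, 5′ to 3′ along the gene, with matches in capitals.
Slc25a31 (chr3:40708771-40708870, plus strand): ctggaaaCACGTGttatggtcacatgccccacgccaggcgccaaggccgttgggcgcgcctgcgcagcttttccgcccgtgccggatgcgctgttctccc
Tex12 (chr9:50561269-50561368, minus strand): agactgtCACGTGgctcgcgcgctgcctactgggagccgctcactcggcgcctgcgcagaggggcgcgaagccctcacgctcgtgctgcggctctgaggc
Smc1b (chr15:85131958-85132057, minus strand): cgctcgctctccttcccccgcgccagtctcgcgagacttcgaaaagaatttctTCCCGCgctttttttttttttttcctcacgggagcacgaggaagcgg
Sycp3 (chr10:88459487-88459586, plus strand): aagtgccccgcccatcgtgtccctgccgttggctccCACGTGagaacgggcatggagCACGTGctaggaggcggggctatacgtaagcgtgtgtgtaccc
Ddx4 (chr13:112652311-112652410, minus strand): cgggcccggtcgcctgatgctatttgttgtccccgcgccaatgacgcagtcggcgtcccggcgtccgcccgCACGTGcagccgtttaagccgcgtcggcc
Taf7l (chrX:134476491-134476590, minus strand): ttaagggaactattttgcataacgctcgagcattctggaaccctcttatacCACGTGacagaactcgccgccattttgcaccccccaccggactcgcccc
The E-box began 93 bases before the start in Slc25a31 and Tex12, 64 and 43 bases before it in Sycp3, 49 in Taf7l and 29 in Ddx4, and TCCCGC began 47 bases before the start of Smc1b. Such a match is a description of the letters, not of binding.

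Genes of meiotic chromosomes rose with them. Of 26 listed, 18 rose, none fell, 4 did not pass the test and 4 were below the level needed to be counted, with a median of 2.25. Sycp3 (chr10:88459569-88473236), a lateral element of the synaptonemal complex, went from 12.4 and 13.8 TPM to 1702 and 1651 TPM (log2 fold change 6.90 ± 0.24 (SE), adjusted p = 1.75e-06), above the 666 and 973 TPM of the PGC libraries, and 52.2% of its exon bases lie in exons of another annotated gene. Tex12, a part of the central element, went from 2.03 and 1.49 TPM to 450.3 and 522 TPM (log2 fold change 7.47 ± 0.19 (SE), adjusted p = 1.11e-06). The replicates of Sycp3 and Tex12 lay close together and the groups far apart. Smc1b, the meiotic cohesin, went from 0.644 and 0.7899 TPM to 203 and 230.4 TPM (log2 fold change 6.99 ± 0.20 (SE), adjusted p = 1.11e-06). Stra8, the gene that retinoic acid induces at meiotic entry, went from 2.53 and 3.59 TPM to 192 and 212 TPM (log2 fold change 5.65 ± 0.16 (SE), adjusted p = 1.11e-06), below the 333 and 343 TPM of the PGC libraries.

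Genes of recombination were mixed. Mei4 and Msh4, which act in forming breaks and crossovers, rose to 7.81 and 9.301 and 2.84 and 2.57 TPM. Spo11, the enzyme that makes the breaks for recombination, rose to 3.06 and 2.07 TPM, and Prdm9, which marks where they form, to 2.001 and 3.02 TPM. Dmc1, the recombinase, read 7.27 and 6.87 TPM in ESCs and 9.24 and 13.2 TPM in ESC-PGCLCs and did not pass the test. Mlh3 and Rec114 did not pass it either, and Msh5, Rad21l and Mei1 stayed below the level needed to be counted. After the GC and length correction 19 meiosis genes were higher and 1 lower.

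The shared pluripotency network was lost unevenly. Of 18 listed factors, 3 rose, 8 fell and 7 did not pass the test, and the median was -0.68. Pou5f1 (Oct4, chr17:35506018-35510772) fell from 23.5 and 19.01 TPM to 0.374 and 0 TPM, or 486 and 508 recovered reads in ESCs and 4 and 0 in ESC-PGCLCs (log2 fold change -4.24 ± 0.26 (SE), adjusted p = 1.03e-05). Nanog fell from 674 and 470.1 TPM to 24.2 and 34.96 TPM (log2 fold change -4.23 ± 0.25 (SE), adjusted p = 1.01e-05). Sox2 went up, from 32.7 and 44.6 TPM to 97.3 and 110.5 TPM (log2 fold change 1.42 ± 0.27 (SE), adjusted p = 0.0031). The 3 core factors therefore did not move together. In the PGC libraries Pou5f1 read 3.14 and 1.63 TPM, Nanog 43.8 and 31.4 TPM and Sox2 83.4 and 75.1 TPM. Pou5f1 was thus low in PGCs as well, and far below Nanog in ESCs, where the study reports high Oct4. Whether this entry captures all reads of the gene was not tested, so the size of its fall is uncertain.

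Secreted and membrane factors of the ESC state fell. Tdgf1 (Cripto), the co-receptor of Nodal, went from 576 and 597 TPM to 1.36 and 0.656 TPM (log2 fold change -8.21 ± 0.34 (SE), adjusted p = 2.72e-06). Fgf4, which ESCs secrete to drive ERK, went from 42.3 and 49.2 TPM to 0.197 and 0.154 TPM, and Gdf3 from 272 and 261 TPM to 6.33 and 7.504 TPM. Lin28b, a germ cell RNA-binding protein, rose from 0.587 and 0.538 TPM to 5.33 and 5.77 TPM, and so did Rif1, whose log2 fold change of 1.69 became 0.53 after the GC and length correction and then did not pass the test. Sall4, Utf1, Trim71, Dppa2, Dppa4 and Lin28a did not pass it.

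Of the naive pluripotency genes none rose. Of 24 listed, 16 fell and 8 did not pass the test, with a median of -1.55. Tfcp2l1, a core factor of the naive state, fell from 30.9 and 29.6 TPM to 2.12 and 1.74 TPM (log2 fold change -3.42 ± 0.21 (SE), adjusted p = 1.12e-05). Esrrb fell from 15.3 and 15.8 TPM to 5.04 and 4.35 TPM, Klf4 from 27.3 and 29.1 TPM to 6.48 and 7.57 TPM and Zfp42 (Rex1) from 236 and 233 TPM to 55.1 and 62.4 TPM. Each of these stayed well above the floor in ESC-PGCLCs. Spp1, osteopontin, fell from 5710.3 and 6384 TPM to 132 and 119 TPM and Nr0b1 (Dax1) from 127 and 132 TPM to 4.88 and 5.03 TPM. Jam2 went from 55.1 and 52.6 TPM to 2.79 and 2.51 TPM. Prdm14, Klf5, Lifr, Gbx2, Pecam1, Stat3, Tet2 and Nr5a2 were the 8 that did not pass. Klf2 lost its call after the GC and length correction (log2 fold change -0.89).

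Formative and primed epiblast genes, which mark the step between naive ESCs and specification, were mixed. So were all counted genes, with 26.8% higher and 25.9% lower. Of 23 listed, 5 rose, 5 fell, 4 did not pass the test and 9 were below the level needed to be counted, with a median of 0.23. Fgf5 stood at 0.0868 and 0.303 TPM and 0.841 and 0.393 TPM, and Otx2, which restrains germ cell fate, at 0.18001 and 0.219 TPM and 0.398 and 0.524 TPM. Both were below the level needed to be counted in either group. Sfrp2, a secreted WNT modulator, rose from 0.252 and 0.352 TPM to 41.9 and 57.3 TPM (log2 fold change 5.26 ± 0.17 (SE), adjusted p = 1.42e-06) and Sox4 from 1.06 and 1.02 TPM to 16.2 and 18.4 TPM, with 54.6% of its exon bases in exons of another gene. Car14 rose by 1.32 on the log2 scale. After the GC and length correction 3 listed genes were higher and 5 lower. Sox11, Etv5 and Zic5 fell, and Nkx1-2 fell from 3.66 and 2.96 TPM to 0 in both ESC-PGCLC libraries, at least 15.8-fold lower against a floor of 3 reads per library.

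Few lineage genes reached the level needed to be counted. Of 25 primitive streak and mesoderm genes, 5 rose, 2 fell, 2 did not pass the test and 16 were below the level needed to be counted, with a median of 0.19. Msx1, a homeobox target of BMP, rose from 0.105 and 0.0543 TPM to 23.8 and 25.1 TPM (log2 fold change 4.56 ± 0.16 (SE), adjusted p = 1.75e-06), Msx2 from 0.265 and 0.103 TPM to 18.98 and 15.1 TPM and Gata2 from 0.0804 and 0.0935 TPM to 12.6 and 13.5 TPM. Lhx1 reached 8.003 and 7.84 TPM. Eomes fell from 1.67 and 1.56 TPM to 0.304 and 0.118 TPM, and Cdx1 fell by 1.42 on the log2 scale, a call that was lost without ESC replicate 2, without ESC-PGCLC replicate 2, in a fit of the 4 libraries alone and with the GC and length correction, which left 1 member of the list lower.

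Of 16 endoderm genes, 4 rose, none fell and 12 were not counted (median 0.41). Cxcr4, the receptor that guides migrating PGCs as well as endoderm, was at 0 in both ESC libraries and at 5.23 and 5.57 TPM in ESC-PGCLCs, at least 33.8-fold higher against the floor of 3 reads. Gata6 reached 4.21 and 3.08 TPM, Foxa1 1.896 and 1.403 TPM and Foxa2 1.15 and 1.24 TPM, and the call of Foxa2 was lost without ESC replicate 1, ESC replicate 2 or ESC-PGCLC replicate 2. Of 14 trophoblast and extraembryonic markers, Gata3 rose to 2.48 and 2.47 TPM, Eomes and Pou2f3 fell, Pou2f3 losing its call with the GC and length correction, which left 1 lower, and 10 were not counted (median 0.03). Of 35 Hox genes, Hoxd1 and Hoxd8 rose to 1.24 and 2.77 and 1.46 and 2.78 TPM, Hoxc13 fell from 4.85 and 4.24 TPM to 0.256 and 0.599 TPM and 32 were not counted (median 0.06).

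Transcripts of the two-cell-like state, a rare condition of cultured ESCs, were low in ESCs and close to 0 in ESC-PGCLCs. Summed over the 19 listed genes, they came to 3.39 and 20.6 TPM in ESCs, and ESC-PGCLCs held 0 and 0.176 TPM. Zscan4a was the 1 member counted, and it fell from 1.29 and 4.02 TPM to 0 in both ESC-PGCLC libraries (log2 fold change -1.76 ± 0.31 (SE), adjusted p = 0.0021). Its copies share 39.1% of its 100-base stretches, the ESC libraries differed by over 3-fold and the call was lost in a fit of the 4 libraries alone. The median over the list was -0.21.

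**Figure D4:**
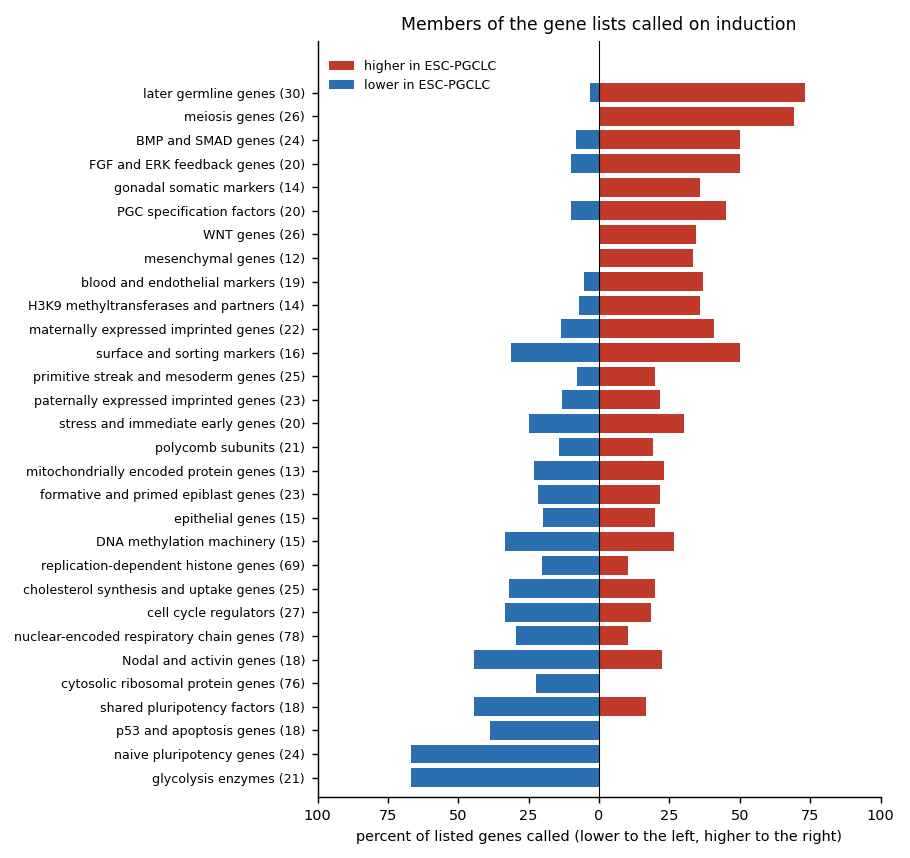
Percent of the genes of each list called higher (red, right) or lower (blue, left) in ESC-PGCLCs, for lists with at least 5 counted members, with the number of listed genes in brackets. Members that were not counted stay in the total, so these percents are not shares over counted genes. Later germline genes (22 of 30 higher) and meiosis genes (18 of 26) stand at the top, and glycolysis enzymes (14 of 21 lower) and naive pluripotency genes (16 of 24) at the bottom.

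BMP4 was among the factors added for induction, and genes of its pathway were read for that reason. No ESC-PGCLC library was made without BMP4, so its part in their changes was not tested. Over all counted genes 26.8% were higher and 25.9% lower. Of 24 BMP and SMAD genes, 12 rose, 2 fell, 5 did not pass the test and 5 were below the level needed to be counted, with a median of 1.05. The target Id1, an inhibitor of helix-loop-helix factors, went from 4.02 and 4.42 TPM to 81.4 and 109 TPM (log2 fold change 4.19 ± 0.24 (SE), adjusted p = 8.32e-06), Id2 from 15.9 and 12.5 TPM to 101 and 110.0 TPM and Id4 from 3.61 and 4.37 TPM to 26.8 and 30.6 TPM. Id3 was already at 104 and 96.99 TPM in ESCs and stood at 113 and 133 TPM in ESC-PGCLCs, which did not pass the test (log2 fold change 0.29 ± 0.22 (SE), adjusted p = 0.34), and after the GC and length correction it did (1.15). The 4 Id genes therefore differed in where they started more than in where they ended. The receptor Bmpr1a went from 7.38 and 8.91 TPM to 43.3 and 45.03 TPM, and Acvr1, Bmpr2, Smad4 and Smad5 also rose. So did the inhibitory Smad6 and Smad7. The ligand Bmp8b fell from 7.08 and 4.81 TPM to 0.704 and 0.633 TPM, and Tsc22d1 from 69.98 and 59.7 TPM to 16.3 and 15.8 TPM. Bmp4 itself was at 2.12 and 1.42 TPM and 3.55 and 3.93 TPM.

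In Nodal signalling the ligand and its antagonists fell and a pair of receptors rose. Of 18 listed, 4 rose, 8 fell, 3 did not pass the test and 3 were below the level needed to be counted, with a median of -0.05. Nodal fell from 10.1 and 7.31 TPM to 0.301 and 0.469 TPM (log2 fold change -2.79 ± 0.21 (SE), adjusted p = 2.81e-05), its antagonist Lefty1 from 17.7 and 14.1 TPM to 0.718 and 0.699 TPM and Lefty2 from 41.2 and 44.2 TPM to 0.322 and 0.282 TPM (log2 fold change -5.07 ± 0.26 (SE), adjusted p = 5.71e-06). Foxh1, a partner of the SMADs, also fell. Skil (SnoN), a repressor of SMADs, rose from 9.72 and 7.76 TPM to 215 and 232 TPM (log2 fold change 4.53 ± 0.24 (SE), adjusted p = 6.02e-06), above the 48.3 and 71.9 TPM of the PGC libraries. The receptors Acvr2a and Acvr2b and the mediator Smad2 rose by 1.88, 1.48 and 1.32 on the log2 scale, and Acvr2a and Smad2 lost their calls after the GC and length correction, which left 2 listed genes higher and 8 lower.

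In FGF and ERK signalling the ligand Fgf4 fell and several feedback genes rose. Of 20 listed, 10 rose, 2 fell, 3 did not pass the test and 5 were below the level needed to be counted, with a median of 1.07. Dusp6, a phosphatase of ERK, went from 3.05 and 2.34 TPM to 13.02 and 12.9 TPM (log2 fold change 1.92 ± 0.20 (SE), adjusted p = 0.00013) and Spred1, an inhibitor of RAF activation, from 2.8001 and 3.08 TPM to 21.6 and 20.9 TPM. Egr1 rose from 0.0242 and 0.0188 TPM to 4.45 and 4.88 TPM, Dusp4 from 0.0792 and 0 TPM to 4.297 and 3.497 TPM and the receptor Fgfr1 from 0.989 and 1.18 TPM to 6.98 and 9.18 TPM. Spry4 was below 1 TPM in all 4 libraries, at 0.379 and 0.275 and 0.825 and 0.964 TPM, and was called higher with the pseudocount of 0.1 TPM and with voom alone. Etv5 fell by 1.27 on the log2 scale.

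Of 26 WNT genes, 9 rose, none fell, 8 did not pass the test and 9 were below the level needed to be counted (median 0.72), and 6 rose after the GC and length correction. Axin2, a direct target and feedback inhibitor, went from 1.36 and 1.18 TPM to 6.03 and 6.43 TPM (log2 fold change 1.67 ± 0.26 (SE), adjusted p = 0.0011), and Tcf7, a nuclear effector, from 6.37 and 5.801 TPM to 30.5 and 33.8 TPM. The ligand enhancer Rspo3 rose from 0.176 and 0.109 TPM to 4.35 and 4.45 TPM and the receptor Fzd7 from 3.43 and 2.71 TPM to 13.9 and 15.7 TPM. In this list 1 to 4 members were called lower under the pseudocount of 0.1 TPM, quantile normalization, voom and 3 of the 4 fits without an ESC or ESC-PGCLC library, where none was in the values reported.

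Genes of DNA methylation were called in both directions, as were all counted genes (26.8% higher and 25.9% lower). Of 15 genes of the DNA methylation machinery, 4 rose, 5 fell, 5 did not pass the test and 1 was below the level needed to be counted, with a median of -0.74. Dnmt3b, a de novo methyltransferase, fell from 7.61 and 7.12 TPM to 0.865 and 0.674 TPM (log2 fold change -2.24 ± 0.19 (SE), adjusted p = 5.1e-05). Dnmt3l, its cofactor, fell from 7.59 and 8.39 TPM to 0 in both ESC-PGCLC libraries, at least 34.9-fold lower against a floor of 3 reads per library. Dnmt3a rose from 0.372 and 0.298 TPM to 2.198 and 2.32 TPM (log2 fold change 1.29 ± 0.16 (SE), adjusted p = 0.000379). Uhrf1, which brings DNMT1 to replicated DNA, fell from 32.2 and 28.5 TPM to 4.59 and 7.21 TPM (log2 fold change -2.21 ± 0.25 (SE), adjusted p = 0.000213), and Dnmt1 rose from 5.74 and 5.25 TPM to 14.1 and 12.99 TPM (log2 fold change 1.16 ± 0.22 (SE), adjusted p = 0.0028). Before the GC and length correction, Dnmt3b and Dnmt3l thus fell where Dnmt3a rose, and Uhrf1 fell where Dnmt1 rose. Zfp57, which guards imprints, fell from 29.3 and 19.6 TPM to 0.0555 and 0.2596 TPM (log2 fold change -4.44 ± 0.28 (SE), adjusted p = 1.2e-05). After the GC and length correction 1 member was higher and 7 were lower, and the calls of Dnmt1, Dnmt3a and Hells, a chromatin remodeller, were lost, with log2 fold changes of 0.75, 0.58 and 0.92.

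Of 14 H3K9 methyltransferases and partners, 5 rose, 1 fell, 7 did not pass the test and 1 was below the level needed to be counted (median 0.66). For this list and the polycomb list below, the shares over all counted genes were 26.8% higher and 25.9% lower. Setdb2 rose from 1.29 and 1.46 TPM to 10.1 and 9.29 TPM and Cbx3 (HP1γ) from 26.8 and 20.5 TPM to 79.9 and 84.8 TPM, while Cbx5 (HP1α) fell from 42.5 and 39.03 TPM to 15.7 and 18.4 TPM, a call lost with quantile normalization. Ehmt1 (GLP) rose from 2.93 and 2.81 TPM to 8.47 and 10.3 TPM, and its partner Ehmt2 (G9a) stood at 2.41 and 2.34 TPM and 1.302 and 1.97 TPM, which did not pass the test. With the correction 2 members were higher and 2 lower, and Ehmt1, Setdb1 and Suv39h2 lost their calls. Of 21 polycomb subunits, 4 rose, 3 fell, 12 did not pass the test and 2 were below the level needed to be counted (median 0.10), and 2 were higher and 6 lower with the correction. Phf19, an accessory subunit of PRC2, rose from 0.0646 and 0.0835 TPM to 7.13 and 9.36 TPM (log2 fold change 3.10 ± 0.24 (SE), adjusted p = 3.18e-05). The core subunit Eed fell from 165 and 149.7 TPM to 51.2 and 45.6 TPM and Epop from 3.42 and 4.11 TPM to 0.454 and 0.319 TPM. E2f6, Mga, Pcgf6 and Ezh2 did not pass the test, and Max, which pairs with MGA at germline promoters, rose from 2.32 and 2.48 TPM to 6.49 and 6.897 TPM.

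Imprinted genes, whose parental marks PGCs erase, moved in both directions, as did all counted genes (26.8% higher and 25.9% lower). Of 22 maternally expressed genes, 9 rose, 3 fell, 2 did not pass the test and 8 were below the level needed to be counted (median 0.44). Phlda2 rose from 26.6 and 22.1 TPM to 410.3 and 404 TPM (log2 fold change 4.02 ± 0.15 (SE), adjusted p = 1.78e-06), Cdkn1c, a cell cycle inhibitor, from 1.28 and 0.784 TPM to 29.8 and 33.9 TPM and Igf2r from 0.874 and 0.758 TPM to 14.7 and 13.4 TPM. Meg3 and Rian, long non-coding RNAs of 1 locus on chromosome 12, fell from 2.31 and 2.46 TPM to 0.372 and 0.244 TPM and from 3.49 and 3.84 TPM to 0.231 and 0.269 TPM. Of 23 paternally expressed genes, 5 rose, 3 fell, 5 did not pass the test and 10 were below the level needed to be counted (median 0.07). Peg3 rose from 6.92 and 7.01 TPM to 33.02 and 30.9 TPM and Ndn from 1.998 and 1.503 TPM to 13.3 and 13.8 TPM, while Snrpn fell from 108 and 88.4 TPM to 14.1 and 10.9 TPM (log2 fold change -2.88 ± 0.21 (SE), adjusted p = 2.58e-05) and Mest from 38.96 and 37.8 TPM to 16.2 and 16.8 TPM, the latter call being lost with quantile normalization. Snurf lies within Snrpn and shares 100.0% of its stretches, so their reads cannot be told apart.

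Genes on the X chromosome were read as a group because PGCs reactivate a silent X. The study infers that both X chromosomes are already active in its ESCs. The cause of the change in X-linked genes was not tested. Of 604 counted X-linked genes 266 (44.0%) were higher and 110 (18.2%) lower, beside 26.8% and 25.9% of all counted genes, with a median log2 fold change of 0.80. Autosomes had medians between -0.42 (chromosome 17) and 0.32 (chromosome 1). In the induction of pESCs the X-linked median was 1.02, and autosomes lay between 0.42 (chromosome 17) and 0.65 (chromosome 14). The X-linked genes higher in ESC-PGCLCs include 19 of the Rhox and 10 of the Xlr family, whose copies share sequence. The GC and length correction was not applied to these X-linked counts. Xist, the RNA that coats an inactive X, stood at 0.127 and 0.291 TPM in ESCs and 0.868 and 0.699 TPM in ESC-PGCLCs and did not pass the test (log2 fold change 0.56 ± 0.23 (SE), adjusted p = 0.086), and the PGC libraries read 4.57 and 2.6002 TPM. Xist was called higher with a pseudocount of 0.1 TPM (1.56) and with voom (1.90), and its log2 fold change was -0.56, not called, after the GC and length correction.

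Surface markers were read beside the sort. Itgb3, the gene of the sorted integrin, went from 0.0368 and 0.05702 TPM to 4.38 and 4.41 TPM. Here induction and the sort on its protein cannot be told apart. SSEA1 is a sugar made by fucosyltransferases, of which Fut9 fell from 5.96 and 7.35 TPM to 0.684 and 0.533 TPM (log2 fold change -2.25 ± 0.29 (SE), adjusted p = 0.000413) and Fut4 rose from 0.0799 and 0.0206 TPM to 6.97 and 6.09 TPM (log2 fold change 2.84 ± 0.16 (SE), adjusted p = 7.52e-06). Of the 16 surface and sorting markers, 8 rose, 5 fell and 3 did not pass the test (median 0.82). The Fut genes thus moved in opposite directions. Epcam, an adhesion molecule of epithelia, rose from 33.2 and 26.8 TPM to 108 and 113 TPM, and the tetraspanin Cd9 fell from 1079 and 1126 TPM to 105 and 99.6 TPM (log2 fold change -3.42 ± 0.15 (SE), adjusted p = 3.21e-06). Cd38 fell from 17.05 and 14.8 TPM to 0.919 and 0.505 TPM, and Alpl, the alkaline phosphatase of ESCs and PGCs, from 14.9 and 14.9 TPM to 4.64 and 4.204 TPM.

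Epithelial genes were called in neither direction above the shares over all counted genes, 26.8% higher and 25.9% lower. Of 15 epithelial genes, 3 rose, 3 fell, 7 did not pass the test and 2 were below the level needed to be counted (median -0.17). E-cadherin (Cdh1) fell from 28.9 and 30.1 TPM to 13.2 and 13.8 TPM, a call lost with quantile normalization. Cldn4 fell from 5.38 and 4.49 TPM to 0 in both libraries and Spint2 by 1.32 on the log2 scale, and the splicing factor Esrp1 rose from 0.499 and 0.294 TPM to 10.9 and 11.6 TPM and desmoplakin (Dsp) to 4.14 and 4.81 TPM. Of 12 mesenchymal genes, 4 rose, none fell, 3 did not pass the test and 5 were below the level needed to be counted (median 0.40), and 2 were higher and 1 lower with the GC and length correction. Snai2 rose from 0.4297 and 0.749 TPM to 5.31 and 6.2001 TPM. Zeb1 rose to 4.38 and 3.71 TPM, Twist1 to 1.81 and 1.96 TPM and Cdh11 to 1.25 and 1.32 TPM, while Vim did not pass the test. Twist1 lost its call without ESC replicate 2, and Zeb1 and Cdh11 lost theirs with the correction. Of 44 collagen genes, 3 rose and 40 were not counted (median 0.13), Col9a3 going from 0.423 and 0.611 TPM to 18.1 and 20.1 TPM.

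Glycolysis enzymes had the lowest median of the 36 lists. Of 21 enzymes and transporters, none rose, 14 fell, 5 did not pass the test and 2 were below the level needed to be counted, with a median of -2.78. Eno1, enolase, fell from 319.7 and 252 TPM to 3.32 and 3.11 TPM (log2 fold change -6.08 ± 0.21 (SE), adjusted p = 1.75e-06). Tpi1 fell from 180.1 and 155 TPM to 6.19 and 5.98 TPM (log2 fold change -4.57 ± 0.14 (SE), adjusted p = 1.23e-06), Pgam1 from 378 and 335 TPM to 16.2 and 18.7 TPM and Ldha, lactate dehydrogenase A, from 499 and 469 TPM to 32.96 and 35.9 TPM. The glucose transporters Slc2a1 and Slc2a3 fell to 2.64 and 1.82 and 4.904 and 6.51 TPM. Eno1 and Pgam1 share 20.4% and 33.9% of their stretches with other genes and Tpi1 0.422%. After the GC and length correction 13 of the 14 calls stood, and Aldoa had no value. The genes that fell thus included steps of glucose entry and of lactate, but not every step was called. The phosphofructokinase genes Pfkl and Pfkp, and Pdk1, were among those that did not pass the test. The PGC libraries lay between, with 21.9 and 14.7 TPM of Eno1 and 115 and 113 TPM of Ldha.

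Cholesterol genes moved in both directions. Of 25 genes of synthesis and uptake, 5 rose, 8 fell, 11 did not pass the test and 1 was below the level needed to be counted (median -0.34). Of all counted genes 26.8% were higher and 25.9% lower, so the list was not far from that background. In the induction of pESCs 5 members rose and 2 fell, and the difference was called for 14. The enzyme Hmgcs1 rose from 35.02 and 36.1 to 105 and 103 TPM, and so did the sterol sensor Insig1, from 63.5 and 50.5 to 292 and 357 TPM, and the regulator Srebf2. The enzymes Mvk, Mvd, Fdft1 and Ebp fell, Fdft1 from 99.4 and 90.99 to 9.897 and 12.3 TPM and Ebp from 69.5 and 58.7 to 3.37 and 5.42 TPM.

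Respiratory chain and ribosomal genes depended on the correction. Of 78 nuclear-encoded respiratory chain genes 8 rose and 23 fell (median -0.16), against 18 and 12 after it and 14 and 17 with quantile normalization, so no direction is given for the group. Cox7c rose from 1661 and 1912 to 8166 and 10787 TPM, and Uqcrc1 fell from 146 and 116 to 13.6 and 10.8 TPM. Of 76 cytosolic ribosomal protein genes none rose and 17 fell (median -0.32), against 7 and 11 after the correction. Rpl29 fell most, from 393 and 356 to 2.24 and 2.62 TPM, and shares 23.2% of its stretches with other genes. Of 13 mitochondrially encoded protein genes 3 rose (mt-Nd2, mt-Atp8 and mt-Atp6), 3 fell (mt-Nd4l, mt-Co1 and mt-Nd1) and the median was 0.35, or -0.18 after the correction. The call of mt-Co1 was lost under 7 alternatives, each fit without an ESC or ESC-PGCLC library among them, and that of mt-Atp6 with quantile normalization and with the correction. Of 69 replication-dependent histone genes 7 rose and 14 fell (median -0.15), against 9 and 6 after it, and many of these copies share sequence.

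Cell cycle regulators moved in both directions, as did all counted genes (26.8% higher and 25.9% lower). Of 27 listed, 5 rose, 9 fell, 11 did not pass the test and 2 were below the level needed to be counted (median -0.36), against 2 higher and 7 lower with the GC and length correction and 9 higher and 3 lower in the induction of pESCs. The inhibitor Cdkn1a (p21) fell from 212 and 170.4 TPM to 7.66 and 9.28 TPM (log2 fold change -4.34 ± 0.18 (SE), adjusted p = 2.66e-06), and the kinases Cdk4, Cdk6 and Cdk1 fell to 23.4 and 22.7, 1.38 and 1.58 and 17.001 and 17.9 TPM from 318 and 286, 14.1 and 13.1 and 94.4 and 90.9 TPM. Mycn rose from 18.2 and 15.8 TPM to 66.5 and 78.3 TPM, and the calls of Ccne2 and Mki67, both higher, were lost with the correction. Of 18 p53 and apoptosis genes, none rose, 7 fell, 9 did not pass the test and 2 were below the level needed to be counted (median -0.48). Trp53 fell from 88.05 and 61.7 TPM to 4.31 and 4.798 TPM and Bax from 148 and 115 TPM to 8.404 and 6.24 TPM.

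Stress and immediate early genes were called near the shares over all counted genes, 26.8% higher and 25.9% lower. Of 20 listed, 6 rose, 5 fell, 8 did not pass the test and 1 was below the level needed to be counted (median -0.15). Fos rose from 0.692 and 0.501 TPM to 24.9 and 25.7 TPM and Jun to 4.09 and 4.16 TPM, and Junb fell from 21.6 and 19.8 TPM to 0.365 and 0.961 TPM. The amino acid response gene Asns, asparagine synthetase, fell from 1051 and 989 TPM to 26.1 and 27.4 TPM (log2 fold change -5.20 ± 0.14 (SE), adjusted p = 1.11e-06), and its activator Atf4 from 80.4 and 73.6 TPM to 33.6 and 37.5 TPM, a call lost with quantile normalization and with the GC and length correction. The heat shock genes Hspa1a and Hspa1b, near-identical copies, reached 7.72 and 7.62 and 9.68 and 12.7 TPM, above the 0.264 and 0.149 and 1.34 and 1.58 TPM of the PGC libraries.

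Markers of other cells were checked across whole lists. Of 19 blood and endothelial markers, the 7 haemoglobin genes rose, Tek fell and 11 were not counted (median 0.22). Embryonic Hbb-y went from 1.03 and 0.9303 TPM to 300.2 and 353 TPM (log2 fold change 7.37 ± 0.39 (SE), adjusted p = 5.92e-06), Hba-x from 0.347 and 0.628 TPM to 49.5 and 51.9 TPM, Hba-a1, which shares 63.3% of its stretches, from 0.535 and 0.207 TPM to 97.9 and 104 TPM and Hbb-bs from 0 in both ESC libraries to 25.5 and 29.1 TPM, at least 72.5-fold higher. The PGC libraries read 1153 and 1113 TPM of Hbb-y. The list summed to 6.39 and 6.24 TPM in ESCs, 494 and 564 TPM in ESC-PGCLCs and 2206 and 1995 TPM in PGCs. The erythroid regulators Gata1 and Klf1 stood at 0.0862 and 0 and 0.412 and 0.482 TPM in ESC-PGCLCs, Alas2 at 0.0875 and 0 and the blood cell marker Ptprc at 0. The part of haemoglobin RNA in the other gains was not tested.

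Of 14 gonadal somatic markers, 5 rose, none fell, 2 did not pass the test and 7 were below the level needed to be counted (median 0.62). Dmrt1, which germ cells also express, rose from 1.17 and 0.811 TPM to 30.8 and 42.3 TPM (log2 fold change 4.23 ± 0.19 (SE), adjusted p = 3.21e-06), Wt1 from 0.0526 and 0.0136 TPM to 7.16 and 8.05 TPM, Lhx9 from 0 and 0.00886 TPM to 6.2003 and 7.48 TPM and Bmp2 to 4.199 and 3.52 TPM. The defining genes Foxl2, Nr5a1 and Cyp17a1 stood at 0.0646 and 0.0755, 0.0991 and 0.348 and 0 and 0 TPM. The list summed to 6.43 and 7.78 TPM in ESCs, 60.3 and 76.3 TPM in ESC-PGCLCs and 167 and 136 TPM in PGCs.

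The 20 fibroblast and feeder markers summed to 7.598 and 9.44 TPM in ESCs and 38.7 and 40.5 TPM in ESC-PGCLCs (median 0.18). S100a6, which many cells express, and Col3a1 rose, the latter to 2.42 and 2.65 TPM, and the other 18 were not counted. The fibroblast marker Thy1 stood at 0.109 and 0.0562 TPM in ESCs and 0 and 0 TPM in ESC-PGCLCs, Fap at 0 and 0 and 0 and 0.0434 TPM and Col1a1 at 0.132 and 0.128 and 0.3203 and 0.187 TPM.

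The induction of pESCs, which shares no library with that of ESCs, was set beside it. Over the same 15008 genes it called 5099 higher (34.0%) and 1720 lower (11.5%). Of the genes higher in ESC-PGCLCs 2902 were also higher in pESC-PGCLCs, which is 72.1% of the first list and 56.9% of the second, and 1348 were lower in both, 34.7% and 78.4%. Calls were opposite for 248 genes. The difference between the inductions, tested as an interaction, was called for 4837 genes (32.2%), of which 3948 moved further down or less far up in ESCs. The median change was 0.56 in pESCs and 0.08 in ESCs, and the split moved with the scaling, to 1681 of 4318 with median centring, where it turned, 2081 of 3590 with quantile normalization and 1570 of 3144 with the GC and length correction, where it was level. Without ESC replicate 1 the difference was called for 3114 genes.

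**Figure D5:**
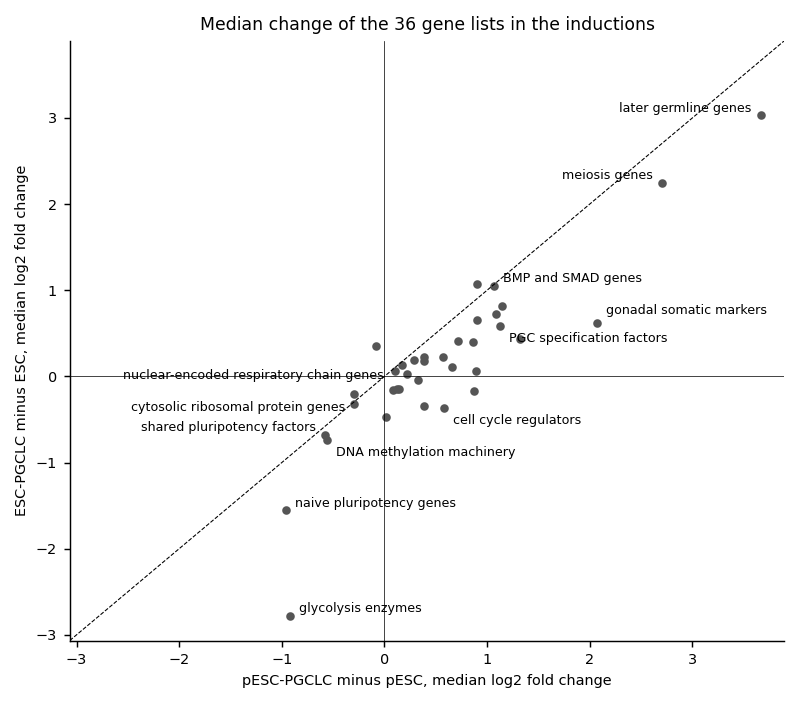
Median log2 fold change of each of the 36 gene lists, over all members in the table, in the induction of pESCs (horizontal axis) and of ESCs (vertical axis), with equal medians on the dashed line. Later germline genes (3.66 and 3.03) and meiosis genes (2.71 and 2.25) are high in both, and glycolysis enzymes lie furthest below the line, at -0.92 and -2.78.

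Lists were set side by side in both inductions. The median of the later germline genes was 3.66 in pESCs and 3.03 in ESCs, and that of the naive pluripotency genes -0.96 and -1.55. Glycolysis enzymes had medians of -0.92 and -2.78, and the difference was called for 15 of the 21 listed. The log2 fold change of Sox2 was -0.81 in pESCs, under the 2-fold needed for a call, and 1.42 in ESCs (difference 2.22 ± 0.38 (SE), adjusted p = 0.005). Dppa3 rose by 2.59 in pESCs (difference 1.36 ± 0.26 (SE), adjusted p = 0.0086), and Id3, at 17.2 and 21.4 TPM in pESCs, by 3.29 (difference -2.998 ± 0.32 (SE), adjusted p = 0.000769).

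The embryonic PGC libraries were set beside both groups. Across counted genes the squared correlation of group means was 0.878 between ESC-PGCLCs and PGCs and 0.540 between ESCs and PGCs. Still, 2808 of the 15008 genes (18.7%) were higher in PGCs and 494 (3.29%) lower. These comparisons share the ESC-PGCLC libraries with the induction, so they are values side by side and no separate evidence.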

How the data were processed

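RNA was sequenced from ESCs, ESC-PGCLCs, pESCs, pESC-PGCLCs and PGCs, 2 libraries each. The authors aligned reads to mm10 and deposited a TPM value per gene (the submitters' processing notes list HISAT2, Bowtie2, RSEM, DESeq2 and R 3.4.2). The study describes amplified cDNA of sorted cells and the labels a total RNA kit, and which was used is not settled in the sources used here. TPM values fix each library's sum, so a rise of some genes lowers others, and short or highly amplified RNAs can move them. Of 36066 names 35859 matched GENCODE genes, 75 several and 132 none. Reads were recovered from TPM and exon length.

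Log2(TPM + 1) was fitted for all 10 libraries with limma 3.58.1 (R 4.3.3), with a trend of the variance on the mean level, on the 27259 genes that reached 0.1 TPM in 2 or more libraries. A gene was called at adjusted p under 0.05 and a 2-fold change. Fold changes on this scale understate the change of low genes. The fit was run on simulated libraries in which few genes changed and no GC, length or TPM-sum effect was built in. That setting differs from these data, so the run says nothing on those effects. Members and lists were chosen with earlier results of these data known. Named genes were the 12 called genes of largest change each way (at least 10 TPM and 200 nt), up to 4 called members of each list each way, fixed germline and pluripotency genes, and members that show a list's limit. Other names were chosen after their values were seen, and a few list members are not reported here by name. Shared sequence was counted as 100-base stretches found in another gene. Alternatives were other pseudocounts, filters, scalings, sets of libraries, a replicate block, voom on recovered reads and, chosen after the data were seen, the GC and length correction.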

Additional observations from a re-analysis of the deposited data

Results flagged for a closer look

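A total of 15 named genes changed on induction by amounts that differed between ESCs and pESCs by at least 8-fold, tested as an interaction in limma (adjusted p under 0.05 over all genes fitted). All values are the log2 fold change in ESCs minus that in pESCs, with 2 libraries in each of the 4 groups.

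Imprinted genes that are expressed from the paternal copy held 3 of the 15. The difference was -6.55 for Snurf and -6.36 for Snrpn, which share reads, and -4.10 for Mest. They stood at 6.799 and 9.46 TPM (Snrpn) and 2.13 and 3.92 TPM (Mest) in pESCs and at 108 and 88.4 and 38.96 and 37.8 TPM in ESCs. After induction Snrpn read 14.1 and 10.9 TPM in ESC-PGCLCs and 94.7 and 105 TPM in pESC-PGCLCs.

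The glycolysis enzymes Eno1 and Tpi1 differed by -3.87 and -3.12, and the cell death gene Bax by -4.001. Eno1 read 117 and 132 TPM in pESCs and 23.8 and 28.4 TPM in pESC-PGCLCs, and Bax 73.8 and 57.2 and 62.2 and 68.4 TPM. Pou5f1 differed by -3.10, from 7.795 and 7.49 TPM in pESCs to 2.98 and 2.88 TPM in pESC-PGCLCs, beside 23.5 and 19.01 and 0.374 and 0 TPM in the ESC induction. Trh differed by -3.05 and embryonic Hba-x by -3.91. Hspa1b was the 1 gene with a more positive change in ESCs, by 3.16.

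The respiratory chain gene Uqcrc1 differed by -5.06, the ribosomal gene Rpl29 by -3.30 and the histone gene Hist1h2an by -3.12. The predicted genes Gm49450 and Gm47428 differed by -5.04 and -4.39, and both share sequence with other genes.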

How the results depend on the processing

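Under the 14 alternatives the number of genes higher in ESC-PGCLCs ran from 3346 to 4648 and the number lower from 3457 to 4313. Leaving out 1 ESC or ESC-PGCLC library in turn gave 3728 to 4065 higher and 3457 to 3730 lower. The lone library left in a group was then assumed to vary like the others. The number of genes whose induction differed between ESCs and pESCs was 3144 with the GC and length correction, against 4837 without it, 3114 to 3982 on leaving out 1 library, with 3114 without ESC replicate 1, and 3590 to 5302 under the others that allow it, and the cause was not tested. For this count the fits without a library, without the filter, over counted genes alone and with voom were chosen after the data were seen.

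The deviations of same-numbered libraries from their group means had correlations of -0.0507 to 0.238 over the 10 pairs of groups and of 0.0156 between ESCs and ESC-PGCLCs (14839 genes), so the numbers do not pair the samples. With a replicate block 4025 genes were higher, 3897 lower and 4786 differed between the inductions.

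Over the alternatives 964 of 1008 counts of list members stayed within 1.5 times their value, and 18 of the 44 that moved did so under the GC and length correction. Of 3104 values of 222 named genes none changed direction beyond the threshold, 52 lost the call and 5 gained it, 21 and 1 of these with that correction. The call of mt-Co1 was lost under 7 alternatives, those of Cdx1 under 4 and of Foxa2, Hist1h2aa, Hist1h2ak and Suz12 under 3 each. Depth limits the lowest genes, since 3 reads on a gene of median length were worth up to 0.338 TPM.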

Other observations

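Further genes were read after their values were seen. The X-linked Rhox homeobox family, which the germline and placenta express, had 37 genes in the table and 20 counted, of which 19 were higher in ESC-PGCLCs and none was lower. The X-linked Xlr family had 15 in the table and 12 counted, with 10 higher and none lower. Rhox2a went from 4.24 and 2.59 TPM in ESCs to 110.3 and 110.9 TPM in ESC-PGCLCs, and Xlr4c from 0.924 and 1.17 TPM to 84.9 and 85.4 TPM. Copies within both families share sequence, so single members are uncertain.

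Single genes of germ cells outside the lists, picked after their values were seen, are given next. Figla, an oocyte transcription factor, went from 0 and 0.201 TPM to 8.55 and 8.82 TPM. Sohlh2, another germ cell factor, went from 3.26 and 2.31 TPM to 22.2 and 28.0 TPM, and Meiob, which binds single-stranded DNA in meiosis, from 0.0637 and 0.346 TPM to 20.5 and 19.5 TPM. The oocyte genes Nobox, Lhx8 and Gdf9 were below the level needed to be counted, and Zp3, a gene of the egg coat that ESCs expressed, fell from 21.6 and 16.5 TPM to 0.318 and 0 TPM.

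Single abundant ESC transcripts that fell, picked in the same way, follow and stand for no group. The metallothioneins Mt1 and Mt2, which bind metal ions, fell from 3541 and 3788 TPM to 38.5 and 38.5 TPM and from 3460.3 and 4088 TPM to 31.1 and 33.8 TPM. Apoe, a carrier of lipids, fell from 649.97 and 586 TPM to 4.62 and 4.60 TPM, and Fabp3, a fatty acid-binding protein, from 730.03 and 752 TPM to 6.39 and 8.06 TPM. The glutathione transferases Gsta4 and Gsto1 fell from 1764 and 1899 TPM to 56.8 and 52.8 TPM and from 327 and 328 TPM to 5.23 and 7.87 TPM. All of these also fell in the induction of pESCs, Mt1 to 69.9 and 77.6 TPM.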
